A study of Homo sapiens with 15 samples.

Results

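The 39 HOX genes of the 4 human HOX clusters were described together with the CDX genes CDX1, CDX2 and CDX4 and the EVX genes EVX1 and EVX2 in H9 human embryonic stem cells on their way to definitive endoderm, the germ layer that forms gut, liver and pancreas. Members were chosen by name alone: every gene symbol made of HOX, a cluster letter from A to D and a paralogue number, plus the 5 CDX and EVX genes, which gave 44 of 23346 genes in the table. HOXA held 11 of them, HOXB 10, HOXC 9 and HOXD 9. H9, an established human embryonic stem cell line, was sampled undifferentiated in E8 medium (day 0) and on days 1, 2, 3 and 4 of differentiation. Every differentiated group was in Advanced RPMI 1640 with activin A, a TGF-beta family protein used in place of Nodal, and had CHIR99021, an inhibitor of GSK3 that switches on Wnt signalling, during the first day only. By these labels, day 1 closes the combined treatment, and days 2, 3 and 4 follow the withdrawal of CHIR99021. Since no group was in the differentiation medium without CHIR99021 on the first day, that compound, activin A, medium and time cannot be told apart in the comparison of day 1 with day 0. No group kept CHIR99021 after the first day, so its withdrawal and time cannot be told apart in comparisons of later days with day 1. Comparisons of later days with day 0 carry both limits.

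HOX genes code for homeodomain transcription factors that give cells their position along the head to tail axis. Within a cluster they lie in the order of their paralogue numbers, low numbers acting towards the head and high numbers towards the tail, and in the embryo the low-numbered genes are switched on before the others. Wnt, FGF and retinoic acid signals act on the clusters in the primitive streak and tail bud, in part through the CDX proteins, homeodomain factors known for hindgut and trunk patterning; EVX1 and EVX2 lie beside the tail end of the HOXA and HOXD clusters, and EVX1 is known as a gene of the posterior primitive streak.

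Each day had 3 polyA-selected bulk libraries, numbered 1, 2 and 4, with total counts from 54723184 (day 4 replicate 4) to 145857940 (day 3 replicate 1). Whether the 3 libraries of a day are separate cultures is not stated in the labels; the spread behind each p-value is that between these samples and may be technical. Replicate 1 of days 3 and 4 stood apart: 6 definitive endoderm markers summed to 1037 CPM there on day 3, where replicates 2 and 4 had 5574 and 2972, and to 886 on day 4, where the others had 4338 and 3075. CER1 was the largest part of these sums. Not every marker was low there: FOXA2 was highest in replicate 1 on day 3 (252, 116 and 48.2 CPM in replicates 1, 2 and 4). CPM stands for counts scaled to a common library size. Every count was even, so a count of 2 is treated as 1 read pair, worth 0.0136 to 0.0353 CPM, and a level under 3 read pairs, 0.0408 to 0.106 CPM, is at the floor of a library. In bulk samples, fewer cells that express a gene and less RNA per cell cannot be told apart. Cell markers followed the labels: 6 pluripotency genes summed to 1626 to 1745 CPM on day 0 and 163 to 305 on day 4, and 6 primitive streak genes to 4.79 to 6.83 CPM on day 0 and 1888 to 2052 on day 1.

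RefSeq's promoter table (GRCh38.p14) had entries for 24 of the 44 members. The 250 bases before the start of CDX2, EVX1 and HOXB1 are shown because these genes reached their highest mean on day 1, and because matches to 3 short motifs differ between them. Capitals mark TCF/LEF cores (CTTTGA or CTTTGT), CDX motifs (TTTATG or TTTATT) and PBX-HOX motifs (TGATNNAT) on either strand, so that AATAAA is a CDX motif read from the other strand.
CDX2, chr13:27969316-27969565, minus strand: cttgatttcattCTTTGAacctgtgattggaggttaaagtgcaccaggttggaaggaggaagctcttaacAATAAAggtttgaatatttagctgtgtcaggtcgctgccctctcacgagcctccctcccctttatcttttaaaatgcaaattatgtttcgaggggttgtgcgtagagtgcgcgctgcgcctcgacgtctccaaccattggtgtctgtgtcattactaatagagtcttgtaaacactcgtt
EVX1, chr7:27242552-27242801, plus strand: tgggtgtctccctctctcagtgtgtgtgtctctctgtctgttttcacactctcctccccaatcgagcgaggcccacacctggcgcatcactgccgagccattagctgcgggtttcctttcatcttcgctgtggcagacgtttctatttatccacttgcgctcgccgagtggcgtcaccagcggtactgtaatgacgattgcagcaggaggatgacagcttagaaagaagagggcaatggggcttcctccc
HOXB1, chr17:48531012-48531261, minus strand: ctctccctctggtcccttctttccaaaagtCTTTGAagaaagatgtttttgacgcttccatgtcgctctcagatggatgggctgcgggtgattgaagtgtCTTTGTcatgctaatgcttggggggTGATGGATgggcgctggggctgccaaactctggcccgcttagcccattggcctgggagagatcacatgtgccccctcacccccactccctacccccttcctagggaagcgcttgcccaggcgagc
The CDX2 window held a TCF/LEF core and a CDX motif, the HOXB1 window 2 TCF/LEF cores and a PBX-HOX motif, and the EVX1 window none of the 3. Windows of this length held a TCF/LEF core in 22.8% of 35116 promoters in the table, a CDX motif in 22.5% and a PBX-HOX motif in 6.47%. The 24 members with an entry had 31 promoters, of which 6 held a TCF/LEF core (those of CDX2, CDX4, HOXA10, HOXA11, HOXB1 and HOXD12), 13 a CDX motif and 4 a PBX-HOX motif (those of EVX2, HOXA2, HOXB1 and HOXD11). Some windows belong to the same gene or are shared by neighbours. The 13 with a CDX motif came from 9 members: CDX2, EVX2, HOXA2, HOXA3, HOXA9, HOXC4, HOXC5, HOXD4 and HOXD8. Several of these windows are of HOXA3 alone, and HOXC4 and HOXC5 share the same window. These matches are letters in a window, not tested sites.

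Of the 44 members, 25 had enough counts for edgeR's quasi-likelihood test, and 22 of those changed over the course (joint test of all days, Benjamini-Hochberg adjusted p under 0.05, against 37.3% of all 17401 genes tested). From day 0 to day 1, 19 members rose and 0 fell, where 5.49% of genes tested rose and 4.88% fell; at an unadjusted p under 0.05, 1 member, HOXD11, was lower, and DESeq2 also called 0 lower. From day 1 to day 2, 2 rose and 9 fell, against 4.93% and 3.34% of genes. A member reached the test only if it had counts on some day, so the members tested are those that were on at some time and these counts describe them rather than the whole family. Consecutive comparisons share the libraries of a day, day 1 being the later group of the first and the earlier group of the next.

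**Figure D1:**
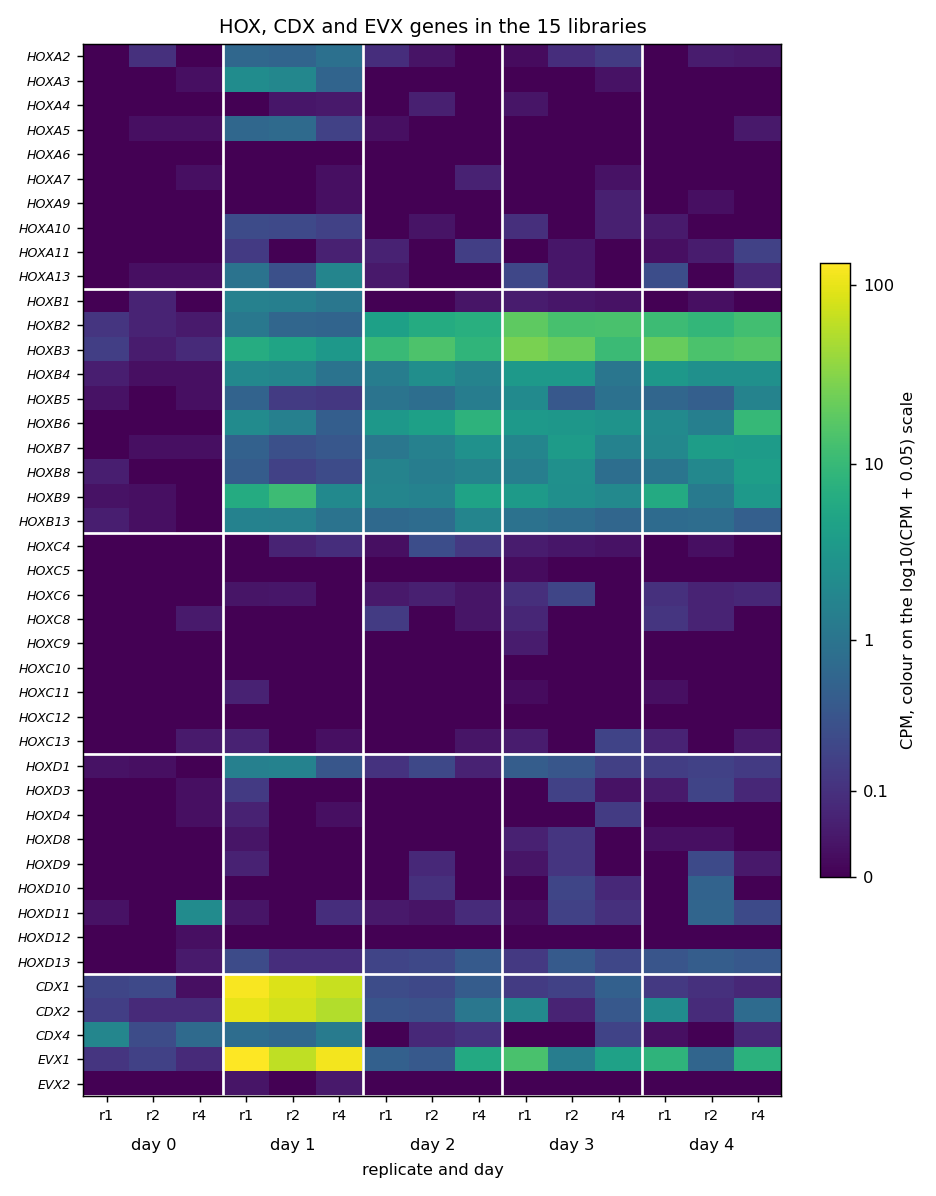
Level of the members described (rows, grouped by cluster and ordered by paralogue number) in each of the 15 libraries (columns, grouped by day, r1, r2 and r4 being replicates 1, 2 and 4), as CPM with the colour on a log scale. CDX1, CDX2 and EVX1 are bright in the 3 libraries of day 1, the HOXB rows from HOXB2 to HOXB13 stay lit to day 4, and HOXC and most HOXD rows stay dark.

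CDX1, CDX2 and EVX1 had the highest day 1 levels of all members, in CPM and per kilobase, and fell within a day of CHIR99021 withdrawal. CDX1 stood at 0.213, 0.238 and 0.0190 CPM in replicates 1, 2 and 4 of day 0, at 120.5, 87.2 and 67.0 on day 1, and at 0.258, 0.226 and 0.438 on day 2. CDX2 went from 0.166, 0.0794 and 0.0761 CPM to 98.3, 75.6 and 52.8 and back to 0.331, 0.301 and 1.07. EVX1 went from 0.118, 0.179 and 0.0761 CPM to 131, 62.4 and 116 and then to 0.516, 0.402 and 5.84. For each of the 3 genes, every day 1 library lay far above every library of any other day. Their log2 fold changes from day 0 to day 1 were 9.19 ± 0.79 (SE) for CDX1 (edgeR adjusted p = 2.46e-06), 9.46 ± 1.35 for CDX2 (0.000256) and 9.68 ± 1.44 for EVX1 (0.000348). From day 1 to day 2 they fell by 8.22, 7.07 and 5.52 on the log2 scale (edgeR adjusted p = 1.53e-05, 0.0018 and 0.00835).

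The 3 genes differed in what was left afterwards. CDX1, a gene of gut epithelium and posterior mesoderm, was at 0.137, 0.0998 and 0.0707 CPM on day 4, inside the range of its day 0 libraries (log2 fold change -0.55 ± 0.68 SE, edgeR adjusted p = 0.559). EVX1 remained higher on day 4 than on day 0, at 8.36, 0.599 and 7.49 CPM (5.45 ± 1.23 on the log2 scale, edgeR adjusted p = 0.00337). Its day 4 mean, 5.48 ± 4.25 CPM (SD, n = 3), compares with 103 ± 36.2 on day 1, and pooled read pairs gave a ratio of day 4 to day 1 of 0.0488 (exact 95% counting interval 0.0451 to 0.0528). Leaving out replicate 1 of day 4 gave a ratio of 0.0292, and leaving out its replicate 2 gave 0.0761. CDX2, which specifies intestine in the embryo, was at 2.26, 0.0799 and 0.742 CPM on day 4, and its replicate 2 lay within the day 0 range. The CDX2 call of day 4 against day 0 (3.27 ± 1.09, edgeR adjusted p = 0.0302) was lost without day 4 replicate 1 (0.168), without any library of day 0 (0.0647, 0.0941 and 0.0735 for replicates 1, 2 and 4) and without replicate 1 of both days 3 and 4 (0.0958).

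Late EVX1 and CDX2 levels differed between libraries of a day. On day 3, EVX1 stood at 13.8, 1.35 and 4.42 CPM in replicates 1, 2 and 4, and CDX2 at 1.97, 0.0601 and 0.388. Replicate 2 was the lowest of its day for both genes on days 2, 3 and 4. The summed level of 6 lateral and extraembryonic mesoderm markers was also lowest in replicate 2 on day 3 (745, 234 and 652 CPM in replicates 1, 2 and 4) and on day 4 (424, 153 and 439), but not on day 2 (275, 413 and 675). KDR, HAND1 and BMP4 made up most of it. KDR was already at 120, 225 and 220 CPM on day 0, with no change called over the course (edgeR joint test, adjusted p = 0.486). HAND1, HAND2, KDR and BMP4 were each lowest in replicate 2 on days 3 and 4. FOXF1 was lowest in replicate 1 on both days, and TBX20 in replicate 4 on day 4. None of those markers was at 0 in all libraries of a day. The summed level of definitive endoderm markers was highest in replicate 2 on each of these days (5613, 6188 and 4230 CPM on day 2). CER1 made up most of the day 2 sum (4767, 5388 and 3458 CPM), and the other markers did not share its order. On day 2, SOX17 was lowest in replicate 2 (94.3, 67.2 and 87.1 CPM). FOXA2, CXCR4 and HHEX were highest in replicate 1 that day, and GATA6 in replicate 4. The part of these cell markers in the EVX1 and CDX2 levels was not tested. EVX1 was above its day 0 libraries in every library of days 2, 3 and 4, but its day 2 call against day 0 (4.16 ± 1.17, edgeR adjusted p = 0.02) was lost without day 2 replicate 4 (0.205) or without any day 0 library (0.0774, 0.0503 and 0.0607 for replicates 1, 2 and 4).

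CDX4, an X-linked relative that acts with CDX2 in posterior mesoderm, did not share the day 1 increase. It stood at 1.80, 0.258 and 0.704 CPM on day 0 and at 0.777, 0.675 and 1.27 on day 1, ranges that overlap. On day 2 it was at 0, 0.0753 and 0.110 CPM, below every library of days 0 and 1. The fall from day 0 to day 4, where 3 read pairs were left against 126, gave a ratio of 0.0267 with an exact 95% counting interval of 0.00544 to 0.0799 (edgeR adjusted p = 0.0223). Leaving out replicate 1 of day 0 gave a ratio of 0.0477, and leaving out replicates 2 or 4 of day 4 gave 0.0436 or 0.0114. That call was lost without day 0 replicate 1 (0.0842), day 4 replicate 1 (0.0624) or day 4 replicate 2 (0.0859). Day 2 against day 0 was 0.0677 by edgeR's adjusted p, and 0.0382 in a fit blocked by replicate number. The blocked fit also called CDX2 higher on day 2 than on day 0 (edgeR adjusted p = 0.043, and 0.132 unblocked), so that it had 14 members higher and 1 lower where the unblocked fit had 13 and 0. EVX2 had 3 read pairs in all, on day 1.

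**Figure D2:**
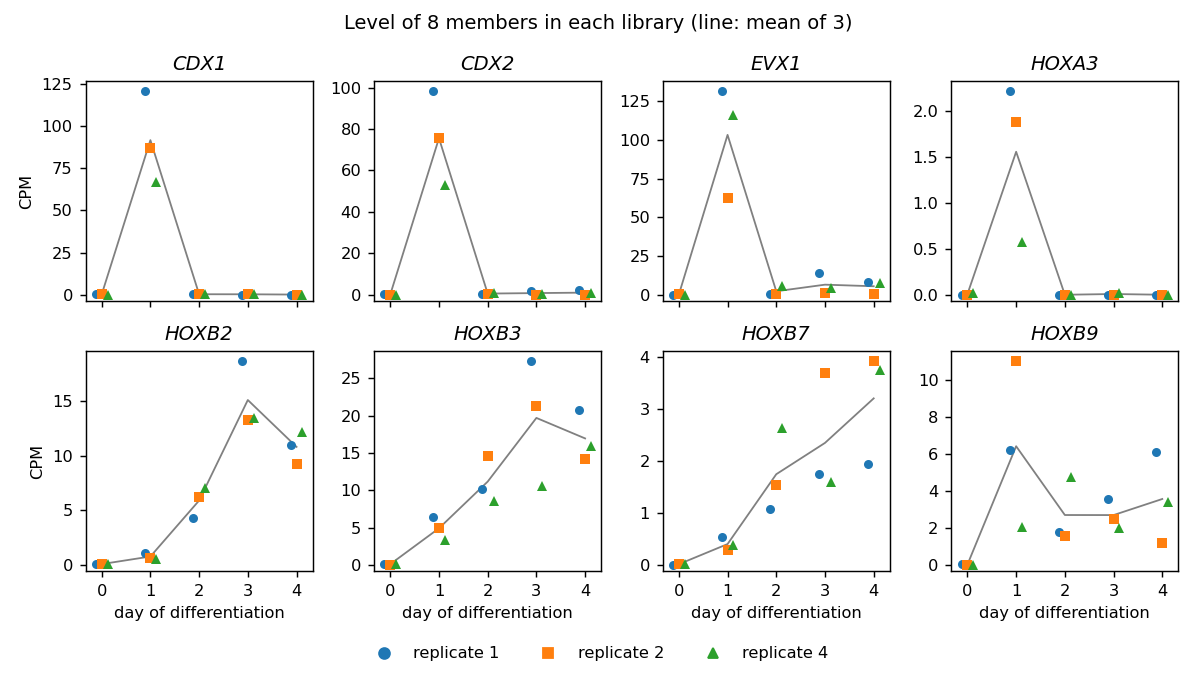
CPM (linear axes, each panel with its own scale) by day of differentiation for 8 members in each library, with replicates 1, 2 and 4 as circles, squares and triangles and a line through the mean of 3. CDX1, CDX2, EVX1 and HOXA3 form a peak on day 1, HOXB2 and HOXB3 have their highest mean on day 3, HOXB7 has its highest mean on day 4, and HOXB9 spreads from 1.18 to 11.0 CPM over the libraries of days 1 to 4.

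In the HOXA cluster, on chromosome 7, 5 of the 7 genes tested rose by day 1, where 5.49% of all genes tested did. HOXA3, HOXA5 and HOXA10 had most of their counts on day 1 and passed the count filter through that day. Their rise was therefore not independent of their being tested, and the remaining HOXA genes had too few counts to test. HOXA3, a gene of pharyngeal arch patterning whose span overlaps HOXA4, HOXA5 and HOXA6 in RefSeq, went from 0, 0 and 0.0190 CPM on day 0 to 2.22, 1.88 and 0.579 on day 1 (edgeR adjusted p = 0.00428) and had no count on days 2 and 4. Against the floor of 3 read pairs over the group, it was at least 61.2-fold lower on day 2 than on day 1 and at least 60.5-fold lower on day 4. HOXA13, the gene at the tail end of the cluster, reached 0.943, 0.294 and 1.76 CPM on day 1 against at most 0.0199 on day 0 (edgeR adjusted p = 0.0329). HOXA5 reached 0.638, 0.705 and 0.181 CPM (0.0325) and HOXA10 0.250, 0.235 and 0.181 CPM, at least 10.4-fold above the floor of a day 0 group without counts (edgeR adjusted p = 0.03). HOXA2, a hindbrain gene, was at 0.638, 0.587 and 0.869 CPM on day 1, above every other library, with 0.0728 for day 1 against day 0 by edgeR's adjusted p and 0.0144 by DESeq2's. The genes in the middle of the cluster between HOXA5 and HOXA10 had 0.0548 CPM or less in every library, and HOXA4 0.0502 or less.

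HOXA3 kept its day 1 call whichever library was left out, and HOXA5, HOXA10 and HOXA13 did not. HOXA5 and HOXA10 lost theirs without any of the 6 libraries of days 0 and 1 (adjusted p from 0.0563 to 0.115 and from 0.055 to 0.0871), HOXA5 also without day 2 replicate 2 (0.0503) or with no filter (0.0584), and HOXA13 without any of the 6 but day 1 replicate 2 (0.0581 to 0.121). By day 2, 4 genes of the cluster had fallen from day 1, HOXA3, HOXA5 and HOXA13 among them, against 3.34% of all genes tested. The limit of the count filter holds here too, since HOXA3 and HOXA5 were tested through their day 1 counts. The HOXA5 fall (edgeR adjusted p = 0.0266) was lost without any library of days 1 and 2 (0.0506 to 0.137), and so was that of HOXA13 (0.0403, then 0.062 to 0.159), the latter also without day 0 replicate 2 (0.0519) or day 4 replicate 4 (0.0511). On day 4, 0 of the 7 HOXA genes tested differed from day 0 by edgeR, against 18% of genes tested called higher and 16.2% lower. DESeq2 called 0 of them too, and HOXA11 alone had an unadjusted p under 0.05.

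The HOXB cluster, on chromosome 17, had all 10 of its genes above day 0 on day 1 and 9 on day 4, against 5.49% and 18% of all genes tested. HOXB1, the most anterior gene and a marker of hindbrain and early streak, was the exception. It stood at 0, 0.0596 and 0 CPM on day 0, at 1.52, 1.44 and 1.09 on day 1, and at 0, 0 and 0.0274 on day 2, so that its day 1 libraries were far above the rest. The ratio of day 2 to day 1 was 0.00585 with an exact 95% counting interval of 0.000147 to 0.0331, from 1 read pair against 164 (edgeR adjusted p = 0.00534). On day 4 it had 1 read pair.

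HOXB2 and HOXB3, its neighbours, rose on day 1 and stood higher still after withdrawal. HOXB2, which acts in hindbrain patterning, was at 0.118, 0.0596 and 0.0381 CPM on day 0, 1.11, 0.617 and 0.579 on day 1, 4.34, 6.28 and 7.10 on day 2, 18.7, 13.3 and 13.4 on day 3 and 11.0, 9.24 and 12.2 on day 4. The libraries of days 0, 1, 2 and 4 did not overlap between days. Its log2 fold changes were 3.42 ± 0.46 (SE) from day 0 to day 1 and 2.94 ± 0.41 from day 1 to day 2 (edgeR adjusted p = 0.000146 and 0.000394), and it kept both calls whichever library was left out. HOXB3, whose span overlaps HOXB4 in RefSeq, was at 6.43, 4.99 and 3.29 CPM on day 1, 10.2, 14.7 and 8.63 on day 2 and 20.8, 14.2 and 15.9 on day 4. Each day 2 library was above each day 1 library, yet the step of 1.19 ± 0.44 had an edgeR adjusted p of 0.118. DESeq2 gave 0.0383 for that step and a fit of only those days 0.0396. Day 4 against day 1, a comparison added after the data were seen, was 1.79 ± 0.45 (edgeR adjusted p = 0.0103).

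HOXB4 to HOXB8 are the middle genes of the cluster, known from trunk and blood progenitors. HOXB6 had no count on day 0 and reached 2.19, 1.498 and 0.471 CPM on day 1, at least 60.2-fold above the day 0 floor (edgeR adjusted p = 0.000253), 3.28, 4.37 and 8.03 on day 2 and 2.10, 1.44 and 9.72 on day 4. HOXB7 was at 0.527, 0.294 and 0.380 CPM on day 1, 1.07, 1.53 and 2.63 on day 2 and 1.94, 3.91 and 3.75 on day 4, with no overlap between days 1 and 2. HOXB8 was at 0.444, 0.176 and 0.253 CPM on day 1, 1.66, 1.35 and 1.64 on day 2 and 1.00, 1.92 and 4.03 on day 4, again without overlap between days 1 and 2. HOXB4 differed in that its day 1 libraries (1.94, 1.73 and 0.941 CPM) overlapped those of day 2 (1.34, 2.44 and 1.64). HOXB5 was at 0.555, 0.147 and 0.127 CPM on day 1 and at 0.994, 0.803 and 1.34 on day 2.

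Of these middle genes, HOXB7 rose again from day 1 to day 2 (2.12 ± 0.57 on the log2 scale, edgeR adjusted p = 0.031), a call lost without any day 1 library (0.0805, 0.133 and 0.105 for replicates 1, 2 and 4) or without day 2 replicates 2 (0.0682) or 4 (0.101). HOXB8 stood at 2.41 ± 0.77 for the same step (edgeR adjusted p = 0.0685, DESeq2 0.00268), HOXB6 at 1.92 ± 0.71 (0.124, DESeq2 0.0425) and HOXB5 at 1.93 ± 0.81 (0.166). The day 1 calls of HOXB5 and HOXB8 against day 0 were lost without day 0 replicate 2 (0.0599 and 0.0508), and that of HOXB5 also without day 1 replicate 1 (0.0847).

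HOXB9 and HOXB13, at the tail end, were high from day 1. HOXB9, a thoracic gene, was at 0.0237, 0.0199 and 0 CPM on day 0, 6.21, 11.0 and 2.03 on day 1, 1.77, 1.58 and 4.74 on day 2 and 6.09, 1.18 and 3.43 on day 4. Its day 1 libraries overlapped those of every later day, and the difference of day 2 from day 1 was -1.25 ± 0.69 on the log2 scale (edgeR adjusted p = 0.308). HOXB13, far from the rest of the cluster and best known from prostate, was at 1.58, 1.56 and 0.941 CPM on day 1, 0.681, 0.753 and 1.73 on day 2 and 0.746, 0.779 and 0.495 on day 4. All its day 4 libraries were below those of day 1, with -1.01 ± 0.63 between these days (edgeR adjusted p = 0.287). Both genes were above day 0 on day 4 (7.86 ± 1.01 and 4.89 ± 0.80, edgeR adjusted p = 4.15e-05 and 0.000319).

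**Figure D3:**
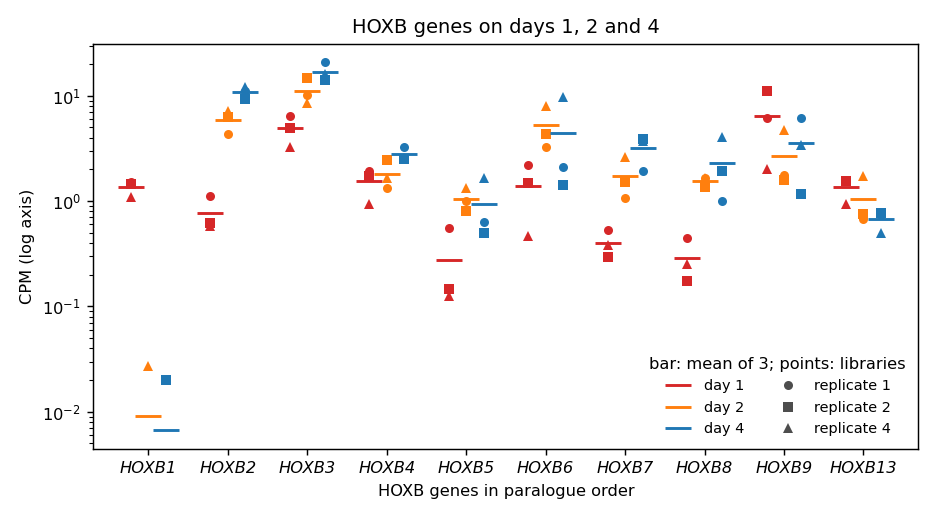
CPM (log axis) of the 10 HOXB genes in the order of their paralogue numbers on days 1, 2 and 4, with a point per library (replicates 1, 2 and 4 as circles, squares and triangles) and a bar at the mean of 3. Libraries with no count cannot be drawn on the log axis and are left out of the points for HOXB1. HOXB1 drops from 1.09 to 1.52 CPM on day 1 to 0.0274 or less, HOXB2 and HOXB3 climb, and HOXB9 and HOXB13 have lower means on days 2 and 4 than on day 1.

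The ratios of day 4 to day 1 are given here for the HOXB genes as a description. The pooled ratio of day 4 to day 1 was 0.00591 for HOXB1 (1 read pair, exact 95% counting interval 0.000149 to 0.0334). It was 14.3 for HOXB2 (11.6 to 17.8), 3.68 for HOXB3 (3.36 to 4.04), 1.97 for HOXB4 (1.64 to 2.37) and 3.15 for HOXB5 (2.10 to 4.84). Further along the cluster it was 2.82 for HOXB6, 7.77 for HOXB7 and 7.03 for HOXB8, and under 1 for HOXB9 (0.635) and HOXB13 (0.544). These intervals cover counting error only and not the spread between libraries. The HOXB6 ratio was 1.42 without day 4 replicate 4, and that of HOXB5 5.98 without day 1 replicate 1. Leaving out replicate 1 of day 4 gave a HOXB9 ratio of 0.351 and a HOXB1 ratio of 0.00975. Leaving out replicates 2 or 4 of day 1 gave HOXB9 ratios of 0.979 or 0.422. By edgeR, HOXB2, HOXB3, HOXB7 and HOXB8 rose and HOXB1 fell between these days, and over all members 4 rose and 10 fell, against 11.8% and 8.93% of genes tested. The HOXB8 call (2.98 ± 0.79, edgeR adjusted p = 0.014) was lost without day 1 replicate 2 (0.0675), day 1 replicate 4 (0.057) or day 4 replicate 4 (0.0632).

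The 10 members lower on day 4 than on day 1 included CDX1, CDX2, CDX4, EVX1, HOXA2, HOXA3, HOXA5, HOXB1 and HOXD1, and some of these calls were weak. HOXA2 (edgeR adjusted p = 0.0364) lost its call without any library of days 1 and 4 (0.0793 to 0.102), without day 2 replicate 2 (0.0547) and without replicate 1 of both days 3 and 4 (0.0903). HOXA5 (0.0171) lost it without replicates 1 or 2 of days 1 and 4 (0.0642 to 0.0863) and without replicate 1 of both days 3 and 4 (0.0599). CDX4 (0.0341 by edgeR) lost it without any library of day 1 (0.0654 to 0.0887) or replicates 1 or 2 of day 4 (0.092 and 0.125), and without replicate 1 of both late days (0.0642).

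Summed over the cluster, HOXB stood higher from day 2 on than on day 1. The 10 HOXB genes summed to 22.5, 23.5 and 10.1 CPM on day 1, 25.4, 33.8 and 37.5 on day 2, 62.7, 51.1 and 33.8 on day 3 and 47.6, 35.7 and 53.8 on day 4. Every day 2, 3 and 4 library was above every day 1 library. The sum does not describe each gene. HOXB2 and HOXB3 had means of 0.769 and 4.91 CPM on day 1, where the cluster mean was 18.7. On day 4 they had 10.8 and 17.0 of a cluster mean of 45.7. HOXB1, HOXB9 and HOXB13 had lower means on day 4 than on day 1. In replicate 1, with its low endoderm marker sum, the HOXB sum was the highest of day 3 and lay between the others on day 4. Without those 2 libraries, CDX2 was the only member to lose its call of day 4 above day 0.

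**Figure D4:**
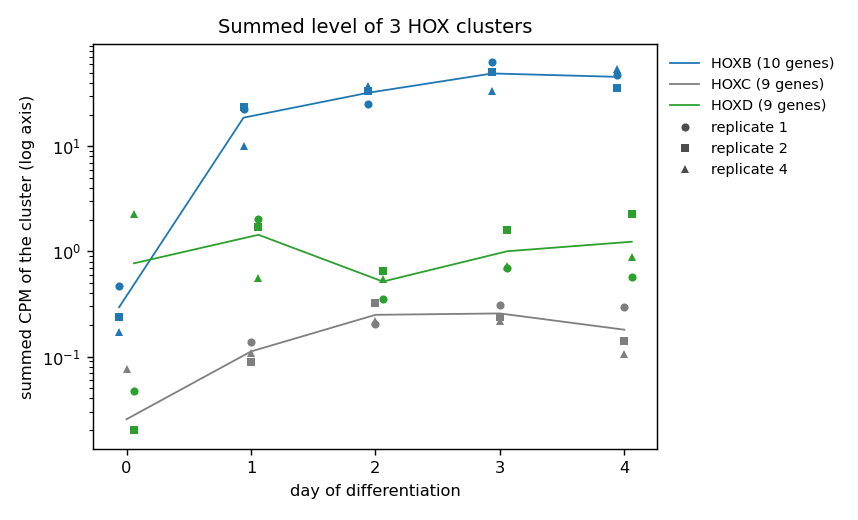
Summed CPM (log axis) of the genes of the HOXB, HOXC and HOXD clusters by day of differentiation, with a point per library (replicates 1, 2 and 4 as circles, squares and triangles) and a line through the mean of 3; libraries at 0 on day 0 cannot be drawn on the log axis. HOXB goes from 10.1 to 23.5 CPM on day 1 to 35.7 to 53.8 on day 4, and HOXC stays at 0.326 or less throughout.

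By paralogue number, the groups differed in how many genes had enough counts. The HOXC cluster, in which no gene could be tested, starts at paralogue 4. It therefore lowers the share tested only among paralogues 4 to 8 and 9 to 13. All 8 genes of paralogues 1 to 3 could be tested, and 6 of them rose by day 1. Of 15 genes of paralogues 4 to 8, 6 could be tested and all 6 rose, 5 of them in HOXB. Of 16 genes of paralogues 9 to 13, 7 could be tested and 4 rose: HOXA10, HOXA13, HOXB9 and HOXB13. The share of all genes that rose by day 1 was 5.49%. Some members, such as HOXA3, HOXA5, HOXA10 and HOXB1, passed the count filter through their day 1 counts, which ties their rise to their being tested. Day 4 was above day 0 for 18% of all genes tested, for 3 genes of the anterior group (HOXB2, HOXB3 and HOXD1), for 5 of the middle group, all in HOXB, and for 3 of the posterior group (HOXB9, HOXB13 and HOXD13). The genes of paralogues 4 to 8 summed to 6.41, 4.67 and 2.52 CPM in replicates 1, 2 and 4 of day 1 and to 8.56, 10.9 and 15.5 on day 2, with no overlap.

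Levels can be set against each other only per length, here as CPM per kilobase of annotated exon. On day 1, CDX1 stood at 52.1 ± 15.4 CPM per kilobase (SD, n = 3), EVX1 at 34.9 ± 12.2 and CDX2 at 18.6 ± 5.60. HOXB9 was at 2.49 ± 1.74 and HOXB3 at 0.783. The ranges of CDX1 (38.1 to 68.5) and EVX1 (21.1 to 44.5) overlapped, and by the median length of coding transcripts their order was reversed (59.0 and 63.1 CPM per kilobase). On day 4, HOXB2 stood at 6.94 ± 0.961 CPM per kilobase, HOXB3 at 2.71 ± 0.542, HOXB7 at 2.33 ± 0.796, HOXB6 at 2.25 ± 2.35 and EVX1 at 1.86 ± 1.44. Among these 5, HOXB2 lay above its neighbour in every library, and by transcript length HOXB3 stood above it, at 10.1 CPM per kilobase.

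HOXD1, in the cluster on chromosome 2, had its highest mean on day 1. It was at 0.0237, 0.0199 and 0 CPM on day 0, 1.498, 1.61 and 0.362 on day 1, 0.111, 0.226 and 0.0548 on day 2, 0.462, 0.360 and 0.170 on day 3 and 0.157, 0.180 and 0.141 on day 4. Each day 1 library was above all libraries of days 0, 2 and 4, days 1 and 3 overlapped, and every later library was above day 0. It rose from day 0 to day 1 (ratio 74.7, exact 95% counting interval 20.3 to 623, and 113 or 47.7 with replicate 4 of day 1 or of day 0 left out; edgeR adjusted p = 0.000824) and fell to day 2 by 3.13 ± 0.84 on the log2 scale (0.0311). That fall was lost without replicates 1 or 2 of day 1 or any library of day 2 (0.0595 to 0.127). Its day 2 call against day 0 (edgeR adjusted p = 0.0336) was lost without any day 0 library or replicates 1 or 2 of day 2 (0.0505 to 0.127). The day 4 call against day 1 (0.0242 by edgeR) was lost without replicates 1 or 2 of day 1, any library of day 4 (0.0647 to 0.1 in all) or replicate 1 of both late days (0.073), and the day 4 call against day 0 (0.0141) in a fit of only those days (0.0663).

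HOXD13, the limb and hindgut gene at the tail end of its cluster, had its highest mean on day 4. It was at 0, 0 and 0.0381 CPM on day 0, 0.250, 0.0881 and 0.0905 on day 1 and 0.353, 0.459 and 0.389 on day 4, without overlap between the 3 days. Day 4 was above day 0 with a ratio of 29.2 (exact 95% counting interval 7.68 to 247, and 19.1 without day 0 replicate 2, edgeR adjusted p = 0.00413), and day 2 too (adjusted p = 0.012). HOXD11 had 2.15 CPM in replicate 4 of day 0, where replicates 1 and 2 had 0.0237 and 0, and at most 0.599 in any later library. No difference of HOXD11 or HOXD3 was called by edgeR.

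The HOXC cluster, on chromosome 12, was near or under the floor on all days. Its 9 genes together summed to 0.106 to 0.326 CPM in the libraries of days 2, 3 and 4 and to 0.0881 to 0.139 on day 1, and none could be tested. Its highest values in any library were 0.276 CPM for HOXC4, 0.210 for HOXC6, 0.194 for HOXC13, 0.147 for HOXC8, 0.0555 for HOXC11, 0.0408 for HOXC9 and 0.0136 for HOXC5. HOXC10, HOXC12 and HOXA6 had no count. Outside HOXC, untested members reached at most 0.559 CPM for HOXD10 and 0.240 for HOXD9 (both in day 4 replicate 2), 0.146 for HOXD4, 0.120 for HOXD8, 0.0548 for HOXA7, 0.0502 for HOXA4, 0.0485 for HOXA9, 0.0362 for EVX2 and 0.0190 for HOXD12. Tested members without a call were HOXA11 (at most 0.177 CPM), HOXD3 (at most 0.200) and HOXD11.

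Between days 2 and 4, under activin A alone, 0 members rose and 0 fell by edgeR, against 1.88% and 0.58% of genes tested. At an unadjusted p under 0.05, 2 members, HOXB2 and HOXD3, were higher and 2 lower, CDX1 among them, and DESeq2 called 0 higher and 1 lower. HOXB2 libraries of day 4 were all above those of day 2 (0.88 ± 0.38 on the log2 scale, edgeR adjusted p = 0.248). Against day 0, 13 members were higher and 0 lower on day 2, where 11.6% and 9.16% of genes were, and 13 were higher and 1 lower on day 4, where 18% and 16.2% of genes were. Those higher on day 2 included 9 HOXB genes, HOXD1, HOXD13 and EVX1. At an unadjusted p under 0.05, 1 member, CDX4, was lower on day 2, and DESeq2 called it lower (adjusted p = 0.0172).

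Genes of the posterior axis and of Wnt signalling, taken as 1 list, moved over the same days. From day 0 to day 1, all 18 genes of that list rose, against 5.49% of all genes tested. Their median log2 fold change was 6.45, against -0.02 over all genes tested. T, the Brachyury gene of the primitive streak, went from 0.497, 0.635 and 0.381 CPM to 462, 364 and 542 on day 1 and 4.24, 3.51 and 11.1 on day 2. MSGN1, a presomitic mesoderm gene, had 1 library with a count on day 0 and stood at 23.55, 24.2 and 25.6 CPM on day 1 and 0, 0.0753 and 0.0822 on day 2. By day 2, 12 of the 18 had fallen from day 1, against 3.34% of all genes, and on day 4 12 were above day 0, against 18%. SP5, a direct Wnt target, was among these, at 51.3, 34.1 and 75.5 CPM on day 4 after 479.5, 243 and 365 on day 1.

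Among 11 TALE homeodomain genes, which code for partners of HOX proteins on DNA, 1 rose and 1 fell by day 1, where 5.49% and 4.88% of all genes did. MEIS3 was the gene that rose, from 7.93, 9.85 and 20.0 CPM to 49.0, 59.7 and 55.5. By day 2, 4 had risen from day 1, PBX2, PBX3 and PKNOX2 among them, against 4.93% of all genes, and 5 of the 11 were above day 0 on day 4, against 18%, MEIS1 and MEIS2 by the most (7.15 and 4.62 on the log2 scale, edgeR adjusted p = 0.000713 and 0.000256). MEIS1 and MEIS2 were highest in replicate 1 of day 4, at 6.95 and 36.4 CPM against at most 1.24 and 13.6 in the others. That library had the low endoderm marker sum, and its part in their levels was not tested.

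Of 17 retinoic acid genes, 5 rose and 1 fell by day 1, where 5.49% and 4.88% of all genes did. ALDH1A2, which makes retinoic acid, went from 0.402, 0.159 and 0.0761 CPM to 10.65, 19.9 and 9.36 and fell again to 1.93, 2.06 and 1.84 on day 2. CYP26A1, which breaks it down, was at 40.4, 30.8 and 48.2 CPM on day 1 and rose to 811, 698 and 1233 on day 2 (4.52 on the log2 scale, edgeR adjusted p = 0.000355).

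Of 22 noncoding and small genes listed for the clusters, 10 were in the table and 5 could be tested, and 4 rose by day 1, against 5.49% of all genes. HOTAIRM1, a noncoding RNA of the HOXA cluster, was at 0, 0 and 0.0571 CPM on day 0, 7.99, 8.02 and 14.5 on day 1 and 0.147, 0.251 and 0.164 on day 2. HOXD-AS1, beside HOXD1, was at 5.58, 5.29 and 3.49 CPM on day 1 and 0.184, 0.301 and 0.137 on day 2. Both fell from day 1 to day 2 (edgeR adjusted p = 0.00165 and 0.0106). PRAC and HOXB-AS5, which lie between HOXB9 and HOXB13, were both above day 0 on day 4 (4.08 and 6.28 on the log2 scale, edgeR adjusted p = 0.00758 and 0.000118), as was HOXD-AS1. No source used here says whether strand entered the counting, which leaves antisense RNAs and genes with overlapping spans uncertain.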

How the data were processed

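Bulk RNA-seq of 15 polyA-selected, directional libraries was deposited as a table of gene counts with no normalization, per the file headers and values; the submitters' processing notes name TopHat2 2.0.14 and hg19, and the counting program is not given in the sources used here. Of 23398 entries, 52 repeated a symbol; 44 identical repeats were dropped and 8 summed. Columns were matched to days and replicates by the sample titles.

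Counts as deposited were tested with edgeR 4.0.16 (quasi-likelihood F-test, TMM, filterByExpr by day, 17401 genes, all 15 libraries, R 4.3.3; called at a Benjamini-Hochberg adjusted p under 0.05 over all genes). The standard error is the log2 fold change divided by the root of F. DESeq2 1.42.0 was an alternative, with other scaling, filters, halved counts, a replicate block, subsets of libraries and each library left out. The script was tested on simulated data. Same-numbered libraries correlated over 0.1 for all 3 numbers only in day 2 against day 0, so the blocked value is given there. CPM use TMM-scaled sizes. Ratios pool read pairs by day, with exact 95% intervals, and were recomputed with each library left out, a choice made after the data were seen. Exon lengths came from GENCODE (GRCh38) and motif searches from RefSeq promoters.

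Members with a mean of 1 CPM on some day, or called in a comparison, are described by library and the rest by their highest value. Of each gene list, counts and up to 4 called genes are given. Members, lists and tests were chosen with earlier results of these data known, and the comparison of day 4 with day 1 was added after the data were seen. Some results are not reported here.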

Additional observations from a re-analysis of the deposited data

How the results depend on the processing

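Counts of members called depended on the setting as follows. With genes kept at CPM over 1 in 3 libraries, 5 members fell from day 1 to day 2 (9 as reported), 0 were lower on day 4 than on day 0 (1), 5 lower on day 4 than on day 1 (10), and 14 changed over all days (22); fewer members were tested. DESeq2 called 5 higher from day 1 to day 2 (2 as reported), 1 lower on day 2 than on day 0 (0) and 1 lower on day 4 than on day 2 (0). A fit of only the days compared gave 5 higher from day 1 to day 2 and 1 lower on day 2 than on day 0. Counts halved, and leaving out replicate 1 of days 3 and 4, each gave 1 lower on day 2 than on day 0, and the latter 6 lower on day 4 than on day 1; the cause was not tested. With the replicate number as a block, 4 members rose from day 1 to day 2 and 1 was lower on day 2 than on day 0, and no other count of calls moved by over 1.5 times. Replicate numbers are not stated to pair libraries: same-numbered libraries correlated over 0.1 for all 3 numbers in day 2 against day 0 (0.234 to 0.568), not in the other comparisons (lowest -0.205). On leaving out a library in turn, 15 to 19 members rose and 0 fell by day 1, 1 to 3 rose and 6 to 9 fell from day 1 to day 2, 10 to 14 were higher and 0 to 1 lower on day 2 than on day 0, 12 to 13 higher and 0 to 1 lower on day 4 than on day 0, 3 to 4 higher and 6 to 10 lower on day 4 than on day 1, and 19 to 23 changed over all days. No member's direction was reversed where it was called. Over single members, 1179 values kept their side of the threshold under the settings other than leaving out 1 library, 31 passed it and 7 no longer did; on leaving out a library these were 2157, 5 and 88. Depth limits members under 3 read pairs in a library. No difference was called where both groups compared had 3 read pairs or fewer in all. Where only 1 group was that low a difference could still be called, as for HOXA3 and HOXB1 on day 2 against day 1.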

Other observations

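Genes of chromatin complexes that hold HOX clusters silent or active changed in small numbers. Of 24 Polycomb and related genes, 1 rose and 3 fell by day 1 by edgeR's adjusted p, against 5.49% and 4.88% of genes tested. JARID2, a PRC2 subunit, fell from 378.5, 637 and 575 CPM in replicates 1, 2 and 4 of day 0 to 82.65, 95.1 and 99.0 on day 1, and PHC1, a PRC1 subunit, from 205.5, 547.5 and 411 to 78.1, 114 and 98.5. PHC2, another PRC1 subunit, rose from 11.4, 15.7 and 16.9 CPM to 63.5, 79.7 and 48.25. CBX7, a PRC1 reader, rose from day 1 to day 2 and EZH2, the PRC2 methyltransferase, fell, where 4.93% and 3.34% of all genes tested did. On day 4, 4 of the list were above and 5 below day 0, shares near the 18% and 16.2% of all genes.

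Of 10 HOX activator genes, KDM6B, which removes the Polycomb mark, rose by day 1 from 2.82, 4.13 and 6.41 CPM to 41.8, 44.1 and 42.3, and PSIP1 fell. No other gene of that list was called by day 1, where 5.49% of all genes tested rose and 4.88% fell. ASH2L alone rose from day 1 to day 2, from 39.4, 34.8 and 36.2 CPM to 126, 110 and 121, where 4.93% of all genes tested rose. Of 5 genes known to time trunk formation, LIN28A fell by day 1, where 4.88% of all genes tested fell, and the other 4 were not called in that comparison. Single calls in lists this short say little about the lists. The ParaHox genes GSX1, GSX2 and PDX1 summed to at most 0.0587 CPM in any library.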
